A study of Triticum aestivum and Triticum urartu and Aegilops speltoides with 12 samples.

Results

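The arrays labelled 2BS2RL, a hexaploid wheat line with a 2BS.2RL translocation, were set against the mean of the 3 diploid progenitors of bread wheat, feature by feature. The comparison used 8 of the 12 arrays in the study: 2 labelled 2BS2RL, and 2 each of A (Triticum urartu), B (Aegilops speltoides) and D (Aegilops tauschii). The 2 ABD arrays (hexaploid wheat) were read against the same mean, to see which departures both hexaploid lines had. The 2 R arrays (rye, a diploid) took no part in the choice of arrays. All arrays were chosen by their titles. Each held total RNA of whole seedlings, leaves and roots together, of 2 plants taken on day 10 at the third leaf stage, and the labels call the 2 arrays within each group biological replicates. The sources used here do not name cultivars or say whether the hexaploid wheat is a parent of the translocation line. The background of the line and the translocation therefore cannot be told apart. Whole seedlings hold many cell types, and in such samples more cells of a type and more RNA per cell cannot be told apart.

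Bread wheat is an allohexaploid: it carries the A, B and D genomes of 3 diploid grasses, so that most genes are present as 3 homoeologous copies. If each genome went on expressing its genes as in the diploid, the level in the hexaploid would be near the mean of the diploids. A level away from that mean is called non-additive, and a level outside the range of all parents is called transgressive. In a 2BS.2RL chromosome the short arm of wheat chromosome 2B is joined to the long arm of rye chromosome 2R, so that genes of the wheat arm 2BL are lost and genes of the rye arm 2RL are gained. Rye arms have been moved into wheat as sources of disease and insect resistance. Ae. speltoides is the closest living relative of the B genome donor and not the donor itself.

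The table held 56855 features, most of them read from expressed sequence clusters of bread wheat (42683) and others from rye, T. monococcum and the Aegilops species. Values are the authors' linear intensities. Of the 56855 IDs, 0 were found in the RefSeq gene table, so features carry their IDs only and no gene, pathway or chromosome arm is named. The departure of a feature is the log2 of the mean intensity of a line minus the log2 of the mean of the A, B and D group means. A feature was called where the limma-based adjusted p was under 0.05 and the departure was at least 1 in size (log2). The prefix of an ID gives the species of the sequence, and a transcript that matches a probe less well reads lower. A difference in probe match was not separated from one in transcript level.

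Replicate arrays labelled 2BS2RL differed by a median of 0.18 (log2), and 97.9% of features differed by less than 1. Across features these 2 arrays correlated at r = 0.988, and at 0.865 to 0.897 with the progenitor arrays, with no p attached because features are not independent. The random control feature, a probe set with no intended target that is read here as background, was lower on the 2BS2RL arrays (mean intensity 89.5) than on A (127.1), D (128.9) and B (154.7). Its departure was -0.61 in 2BS2RL and -0.57 in ABD. At the dim end, a departure of that size was thus reached by a feature that reads no transcript. Counts after scaling each array to this control are given beside the main ones.

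The direction of rye signal bears on every result that sets the 2 hexaploid lines apart. In rye, 3432 features were called higher than the progenitor mean (6.04% of all features). Of these, 2BS2RL was called below ABD in 73 (2.13%) and above it in 19 (0.554%). Over all features 2BS2RL was called lower in 0.311% and higher in 0.331%. Both shares were thus larger among the rye-high features. The comparison of rye with the progenitors and that of the 2 lines share no arrays. A gained rye arm would by itself add rye transcripts to the translocation line, and here the arrays labelled ABD were the higher ones more often. Whether the labels of the lines are exchanged was not tested, and the chromosome arms of these features are not known. Without 2BS2RL replicate 2 the counts below and above were 47 and 7, without ABD replicate 1 they were 49 and 9, and without ABD replicate 2 they were 48 and 10, all on the same side. The labels were kept as deposited, and for each set called in 1 line the mirror set of the other line is given. The comparison of either line with the progenitor mean does not depend on which of the lines is which for the departures both have.

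In the arrays labelled 2BS2RL, 2635 features were higher than the progenitor mean (4.63%) and 3208 were lower (5.64%), together 5843 (10.3%), and 23084 had an unadjusted p under 0.05. The departures to the higher side were the larger ones. Their median was 1.88 (log2), against -1.32 for the lower calls. Background limits how far a lower call can fall. Of the 3208 lower calls, 871 were at or below the random control on both 2BS2RL arrays. How much of the difference in size comes from this was not tested. At least 2 log2 was reached by 1210 of the 2635 higher features and by 494 of the 3208 lower ones, and at least 4 log2 by 272 and 51. Over all 56855 features the median departure was -0.15, with 5% of features below -1.11 and 5% above 0.99.

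How the calls divided into higher and lower depended on the scaling and on the kind of mean. With cyclic loess 3247 features were higher and 1580 lower, with the median of all features moved by 0.11. When each array was scaled to its random control, 6359 were higher and 851 lower, and the median moved by 0.60. With the mean of log2 levels as the reference, which lies at or below the log2 of the linear mean, 4531 were higher and 2173 lower. All 2635 features called higher were also higher when scaled to the random control, and 2634 with cyclic loess. Of the 3208 lower ones, 851 and 1580 remained. Both scalings moved the median departure upward, by 0.60 and 0.11. An upward move by itself keeps higher calls and removes lower ones, so these counts cannot show which calls are firmer. With median scaling, which moved the median by only 0.01, 2633 of the higher and 3111 of the lower calls remained. With values raised to the random control, where it moved by -0.02, 2344 and 2633 remained. With cyclic loess the ABD counts moved in the same way, from 2497 higher and 2663 lower as deposited to 3026 and 1224.

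Most departures lay among features with a low progenitor mean. This mean is also the reference, so that diploid levels read low by error raise the departure of their own set. The higher calls had medians of 7.76 to 7.80 (log2) in the diploids, 10.45 in 2BS2RL and 10.30 in ABD. Over all features the 2BS2RL median was 10.66. Among the 14214 features with the lowest progenitor mean (log2 up to 9.07), 12.5% were called higher and 10.5% lower. Among the 14214 brightest (12.01 and above) these were 0.134% and 0.725%. Of the 3208 lower features, 871 were at or below the random control on both 2BS2RL arrays, against 3955 of all 56855 features. Of the 2635 higher features, 538 were at or below it on all 6 progenitor arrays, against 3354 of all 56855 features. No diploid level was thus measured for these 538. With every value raised to the random control of its array, 2381 features were higher and 2895 lower.

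Set against single diploids, higher and lower departures divided differently. The reference sets part of this split. A linear mean is drawn toward the highest diploid, so a level well below it can still lie above another diploid. A level at least 1 log2 above it can hardly be called below any diploid, and 0 of the 2635 were. How much of the split comes from this was not tested. Of the 2635 features higher than the mean, 1565 (59.4%) were also called higher than each of the 3 diploids, a count that made up 2.75% of all features. In the other 1070 the pattern was mostly of a level above 2 diploids and not called against the third: 333 against A and B, 332 against B and D, and 314 against A and D. Of the 3208 lower features only 432 (13.5%) were below each diploid, which is 0.760% of all features. A further 1402 were below a single diploid, 530 below A, 546 below B and 326 below D, and 1338 were below 2. Over all features 2BS2RL was called above A in 9.68%, above B in 10.9% and above D in 8.94%, and below A in 7.30%, below B in 7.88% and below D in 6.50%. In 292 lower features the 2BS2RL arrays were even called above another of the diploids, so that the level lay between them. By arrays, both 2BS2RL arrays were above all 6 progenitor arrays in 2323 of the 2635 higher features (88.2%), where 3896 of all 56855 features (6.85%) were. They were below all 6 in 1977 of the 3208 lower features (61.6%), where 10214 of all features (18.0%) were. Cyclic loess gave 156 features below each diploid, scaling to the random control gave 62, and leaving out 2BS2RL replicate 2 gave 283.

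**Figure D1:**
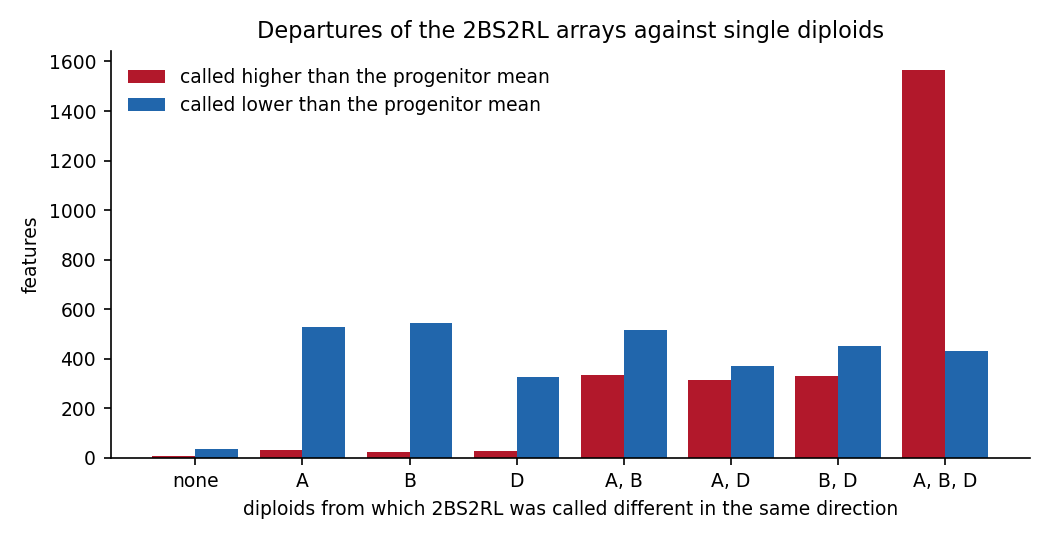
Number of features (vertical axis) called higher (red) or lower (blue) in 2BS2RL than the progenitor mean, by the diploids from which 2BS2RL was called different in the same direction (horizontal axis). The tallest bar is that of the 1565 features above A, B and D together, while the lower features spread over the single diploids, pairs and all 3.

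The leading diploid, the one with the highest level, was B in 39.9% of all features, D in 30.6% and A in 29.5%. This depended on the scaling. B led in 22707 features as deposited, 20151 with cyclic loess and 10723 with scaling to the random control. It led in 24481 with median scaling and 25072 with values raised to that control. Where the leading diploid held over 70% of the summed diploid level, 2BS2RL was called lower in 31.1% of 763 features led by B, in 17.2% of 1327 led by A and in 10.7% of 1311 led by D. Higher calls made up 14.8%, 13.9% and 12.4% of these sets. The order of the lower calls was not that of all features by leading diploid, of which 6.81% were lower where A led, 5.62% where B led and 4.55% where D led (5.64% of all features). Below a share of 50% it was 4.64% for A, 3.26% for B and 3.15% for D. The median departures of the sets over 70% were -0.20, 0.03 and 0.11. ABD gave 31.8%, 16.9% and 8.47% lower, with medians of -0.25, 0.01 and 0.09, against the same diploid arrays. The order from B to A to D in the share of lower calls also stood with cyclic loess (24.8%, 12.3% and 7.82%) and with scaling to the random control (21.4%, 9.92% and 5.32%). The B-led set also had the largest share of higher calls under these scalings, with 22.1%, 17.4% and 15.9% for B, A and D with cyclic loess. With control scaling they were 35.5%, 29.5% and 30.5%, above the lower calls in each set. The negative median of the B-led set did not: it was 0.12 with cyclic loess and 0.50 with scaling to the control. The sets were chosen on the diploid arrays that also make up the reference, so that a diploid reading high by error lowers the departure of its own set. Replicate arrays of B correlated least among the 3 diploids (r = 0.968, against 0.984 for A and 0.985 for D). No test was made of the difference between the sets. Between the lines, the largest median difference (2BS2RL minus ABD) in any of the sets drawn in the plot by leading diploid was 0.09, in 153 features led by B.

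**Figure D2:**
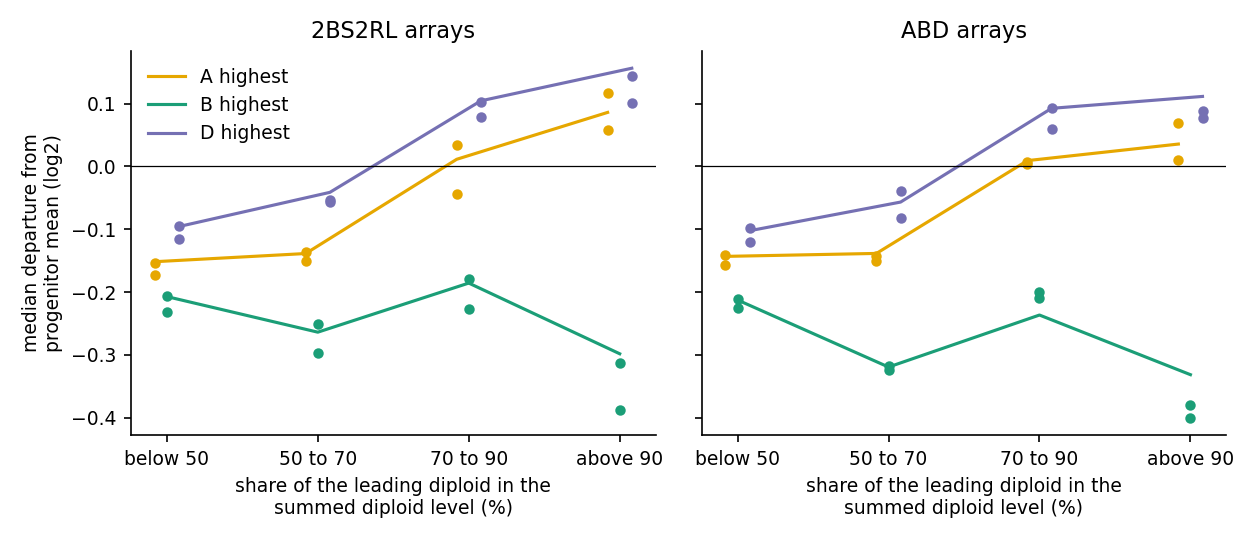
Median departure (vertical axis, log2) of the 2BS2RL arrays (left) and the ABD arrays (right), by the share that the leading diploid holds in the summed diploid level (horizontal axis, percent) and by which diploid leads (colour). Points are single arrays and lines use the mean intensity of both, so that a line can pass outside both points. As deposited, features led by B stay below 0 throughout, while those led by A or D rise above 0 at the highest shares; for shares over 70% the B-led median of 2BS2RL turns positive with cyclic loess (0.12) and with control scaling (0.50).

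By the species of the sequence, nearly all higher departures were on bread wheat sequences. Of 42683 features from bread wheat, 5.77% were higher in 2BS2RL and 5.85% lower. Of 5731 from rye, 70 (1.22%) were higher and 241 (4.21%) lower. Of 5724 from T. monococcum, an A genome diploid, 81 were higher and 303 lower, and of 2489 from Ae. speltoides 22 were higher and 145 lower. In ABD the rye sequences gave 117 higher and 205 lower, the T. monococcum sequences 79 and 251, and those of Ae. speltoides 19 and 125. Sequence sources also differed in brightness: the median level over the 12 arrays was 10.16 (log2) for bread wheat features, 11.56 for rye and 11.90 for T. monococcum. With scaling to the random control the sources other than wheat turned to mostly higher, with 325 higher and 93 lower for rye, 313 and 117 for T. monococcum, and 97 and 52 for Ae. speltoides. Among these 4 sources, bread wheat had the largest share of higher calls under each scaling. On bread wheat sequences 1487 of the 1565 features above each diploid were found (95%, against 75.1% of all features).

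The departures that both hexaploid lines had made up most of the list. Of the 2635 features higher in 2BS2RL, 2185 (82.9%) were also called higher in ABD, which are 87.5% of the 2497 higher in ABD (4.39% of all features). Of the 3208 lower features 1796 (56.0%) were also called lower in ABD, 67.4% of the 2663 lower there (4.68%). Both counts rest on the same 6 progenitor arrays, so that an error in the reference moves both lines alike, and the overlap is given as a count only. Of the shared higher features 1454 were above each diploid in 2BS2RL, and of the shared lower ones 267 were below each. Sizes were near each other: the shared higher features had a median departure of 2.07 in 2BS2RL and 2.00 in ABD, and the shared lower ones -1.48 and -1.41. The difference between the lines itself was called in 20 of the 2185 and 13 of the 1796. In 14 of these 20 and 9 of these 13, 2BS2RL was the line further from the mean.

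Features named here are those with the largest departure for which both 2BS2RL arrays lay beyond all 6 progenitor arrays and the lower side was above the random control. For the higher features, that side was the highest diploid. Taestivum_ESTC040346 read 12.76 and 12.93 (log2) on the 2BS2RL arrays and 11.88 and 11.75 on ABD. On the diploids it read 8.45 ± 0.78 (SD, n = 2) in B, 6.53 and 6.74 in A, and 3.80 and 4.57 in D, where A and D were below the random control. Both hexaploid lines were thus far above all 3 diploids, of which only B gave signal above background. With diploid values raised to the random control, the 2BS2RL level was at least 35.1-fold above the mean (departure as deposited 5.49 ± 0.43 SE, adjusted p = 3.04e-05). ABD had a departure of 4.46 ± 0.43, and the difference between the lines, 1.03, was not called (adjusted p = 0.887).

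Taestivum_ESTC018641 read 12.79 and 12.81 in 2BS2RL and 12.87 and 12.69 in ABD. The diploids lay together far below, between 6.81 and 8.22 on the 6 arrays, and rye read 7.25 ± 0.36 (SD, n = 2). The feature was below the random control on both B arrays, on A replicate 2 and on rye replicate 1. Its departure was 5.45 ± 0.24 (SE, n = 2, adjusted p = 1.17e-06) in 2BS2RL and 5.43 ± 0.24 in ABD. With diploid values raised to the random control, the 2BS2RL fold was at least 40.8. Of the shared higher features this is one that no diploid arrays showed at a comparable level.

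Aspeltoides_ESTC002446, from an Ae. speltoides sequence, read 14.11 and 13.99 in B but only 7.63 and 8.09 in A and 7.82 and 8.08 in D. The hexaploid arrays were below all of these, at 6.93 and 7.35 in 2BS2RL and 7.14 and 7.17 in ABD. The reference is carried by B alone, and 2BS2RL lay 40.9-fold below it (departure -5.35 ± 0.21 SE, n = 2, adjusted p = 5.39e-07), with -5.36 ± 0.21 in ABD. Against A and D by themselves 2BS2RL was not called. Taestivum_ESTC035073 was bright in B (13.15 and 13.29) and D (12.17 and 11.99) and dim in A (7.53 and 7.54). It read 7.50 and 7.44 in 2BS2RL and 7.64 and 7.67 in ABD, near the level of A and of rye (7.21 and 7.88). Its departure was -4.72 ± 0.18 in 2BS2RL (26.4-fold, adjusted p = 4.48e-07) and -4.55 ± 0.18 in ABD.

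Departures seen in 2BS2RL and not called in ABD numbered 1818, 431 higher and 1387 lower. For most of them the data did not show that the lines differ. The difference between 2BS2RL and ABD, in which the progenitor mean cancels, was called the same way in 81 of the 431 and 50 of the 1387. In the other 350 higher features the median departure was 1.19 in 2BS2RL and 0.83 in ABD, and in the other 1337 lower ones it was -1.17 and -0.80. These are features near the threshold in both lines. In a further 44 features the lines were called on opposite sides of the progenitor mean, 19 higher in 2BS2RL and lower in ABD, and 25 the other way. The difference between the lines was called in all 44, which was close to fixed by choosing calls on opposite sides.

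**Figure D3:**
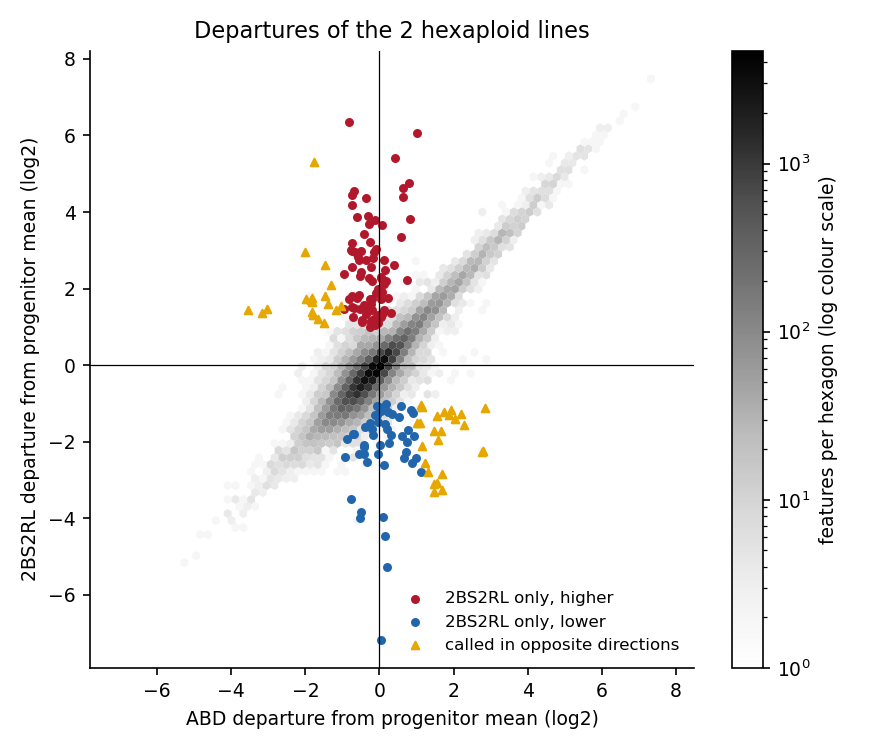
Departure from the progenitor mean (log2) of the 2BS2RL arrays (vertical axis) against that of the ABD arrays (horizontal axis) for 56855 features, shaded by the number of features per hexagon on a log colour scale. Circles mark the 81 higher and 50 lower features called in 2BS2RL and not in ABD with the difference called, and triangles the 44 called in opposite directions; the axes share the 6 progenitor arrays, which by itself draws points toward the diagonal.

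The 81 features higher in 2BS2RL alone had array medians of 10.48 and 10.38 (log2) in 2BS2RL. On the other 10 arrays the medians were between 7.20 and 8.22, with ABD at 7.20 and 7.26 and rye at 7.95 and 8.22. Their departures ran from 1.01 to 6.34, and 45 of the 81 were at least 2. In 62 of the 81, 2BS2RL was above each of the 3 diploids. ABD was at or below the random control on both arrays in 27 of them, and all 6 diploid arrays were in 24. Over all 56855 features these were 4187 and 3354. From bread wheat sequences came 74 of the 81 (91.4%, against 75.1% of all features) and from rye sequences 5 (6.17%, against 10.1%). B was the highest diploid in 45 of them (55.6%, against 39.9% of all features). With scaling to the random control it was the highest in 49 of 112 such features, against 10723 of all 56855.

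The 50 features lower in 2BS2RL alone had medians of 7.43 and 7.32 in 2BS2RL and 9.70 and 9.66 in ABD. The diploids were between these or near ABD, with B at 9.82 and 9.74, D at 9.09 and 8.90 and A at 8.73 and 8.65, and rye was at 8.78 and 8.97. Departures ranged in size from 1.02 to 7.17, 23 of them at least 2. In 11 of the 50, 2BS2RL was below each diploid. In 13 it was at or below the random control on both arrays, against 6.96% of all features. From bread wheat sequences came 41 of these (82.0%) and from rye sequences 7 (14.0%). B was the highest diploid in 26 of the 50 (52.0%), and in 9 of 23 such features with scaling to the random control.

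Without ABD replicate 1 the 81 higher features became 53, and without 2BS2RL replicate 2 the 50 lower ones became 27. These were the largest losses among the left-out arrays, in fits where a single array takes its spread from the other groups. Raised to the random control, 72 of the 81 and 45 of the 50 were still called. Without the dimmest 25% of features 27 and 25 were called.

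The mirror sets, called in ABD and not in 2BS2RL with the difference called, held 67 higher and 50 lower features. The 67 higher ones had medians of 10.35 and 10.21 in ABD and 9.93 and 10.06 in rye. In 2BS2RL they were 7.59 and 7.49, inside the range of the diploid medians (7.10 to 7.68). Rye sequences gave 28 of these 67 features (41.8%, against 10.1% of all features). The 50 lower ones were at 7.06 and 7.04 in ABD, 9.38 and 9.35 in 2BS2RL, and 7.64 and 7.75 in rye, and none came from rye sequences. In both mirror sets the ABD and rye medians thus lay on one side and 2BS2RL on the other. In the lower set D (7.98 and 7.80) also lay nearer to ABD, while A (9.04 and 8.91) and B (9.66 and 9.48) lay nearer to 2BS2RL. In the sets called in 2BS2RL alone, the rye medians lay nearer to ABD than to 2BS2RL, but members differed. Among the 50 lower in 2BS2RL alone, rye was called lower than the progenitor mean in 19 (38%, against 13.4% of all features). It was called higher in 10 (20%, against 6.04%). Among the 81 it was called higher in 13 (16%) and lower in 8 (9.88%). In the mirror sets it was called on the side of ABD in 41 of the 67 and 31 of the 50, with 2 and 0 the other way. These calls share the progenitor arrays with the sets.

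The 25 features lower in 2BS2RL and higher in ABD stood out by their level in rye. Their medians were 11.91 and 11.66 in rye, 9.94 and 10.15 in ABD, 9.03 and 9.17 in B, and 6.34 and 6.26 in 2BS2RL. A (6.76 and 6.86) and D (6.33 and 6.37) were as low as 2BS2RL. In 13 of the 25, 2BS2RL was at or below the random control on both arrays, against 6.96% of all features. From rye sequences came 11 of the 25, against 10.1% of all features. The 19 features higher in 2BS2RL and lower in ABD had the opposite order for rye, with medians of 10.10 and 9.96 in 2BS2RL, 6.54 and 6.35 in ABD and 5.66 and 6.26 in rye. Of the diploids D was also low (6.74 and 6.76), with A at 7.98 and 8.12 and B at 8.90 and 8.86. In 10 of the 19, ABD was at or below the random control on both arrays, against 4187 of all 56855 features. There a departure of ABD is not measured. All 19 came from bread wheat sequences, as did 75.1% of all features. These sets were chosen for the difference between the lines, and only the rye levels are independent of that choice.

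**Figure D4:**
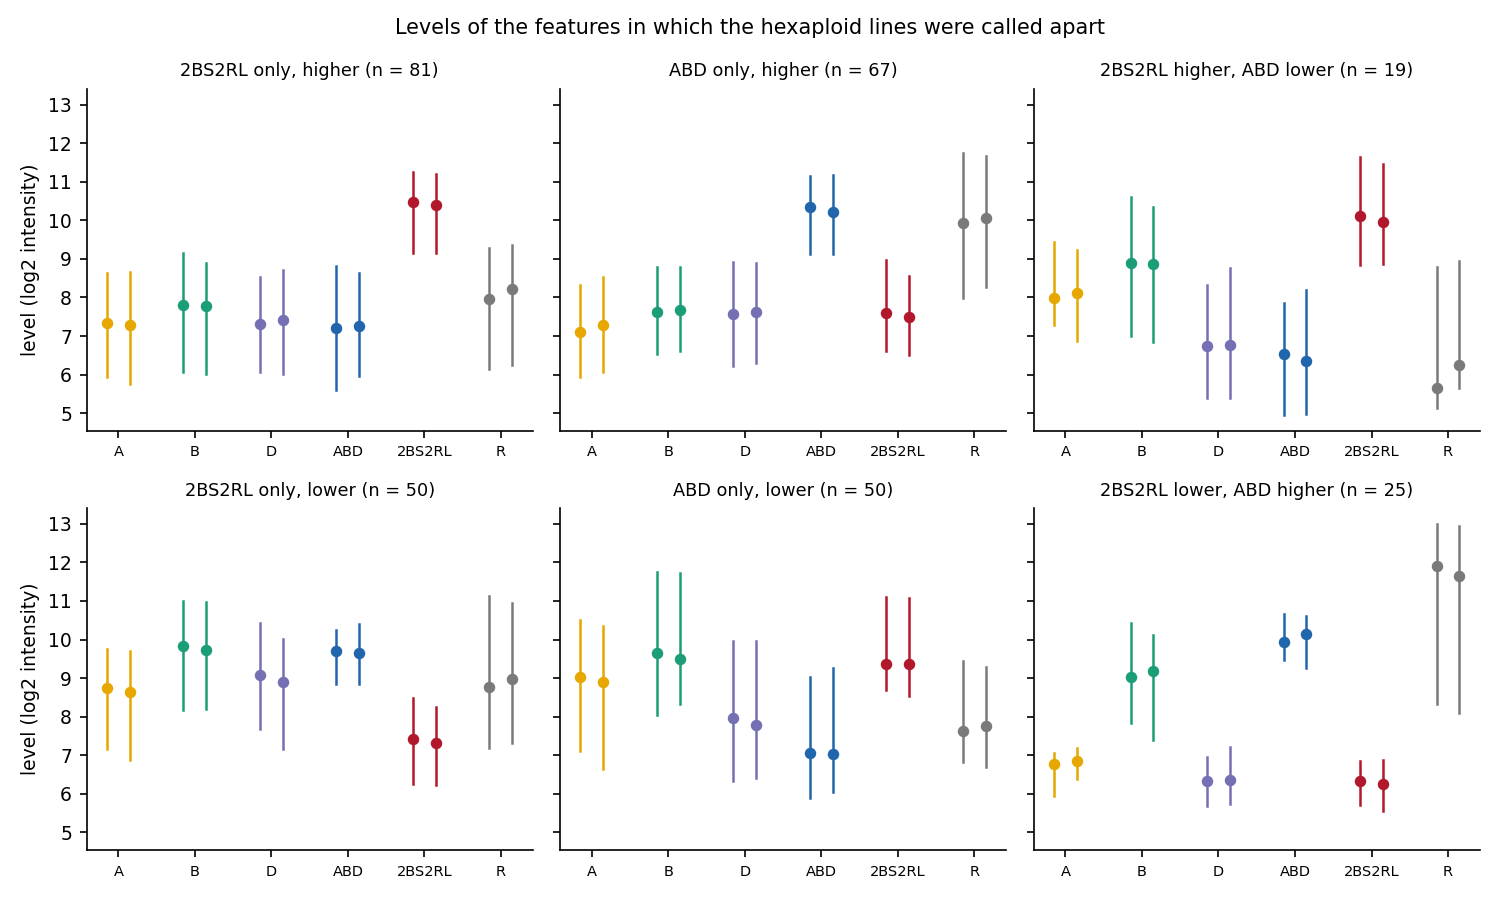
Level (log2 intensity, vertical axis) on each of the 12 arrays (horizontal axis, by group) for the 6 sets in which 2BS2RL and ABD were called apart. Points are medians over the features of a set and bars run from the lower to the upper quartile. In the sets called in ABD alone and in opposite directions, rye is on the side of ABD: at 9.93 and 10.06 in the higher set of ABD alone, above ABD at 11.91 and 11.66 in the set lower in 2BS2RL and higher in ABD, and below 8 where ABD is low. In these sets with low ABD, D is also below 8.

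Taestivum_ESTC048835 had the largest departure among those of the 81 that met the rule for naming. It read 11.33 and 11.50 in 2BS2RL against 7.16 and 7.26 in ABD, and between 7.08 and 7.81 on the 6 diploid arrays. The random control was between 6.95 and 7.30 on these diploid arrays, so that the fold below rests on a reference near background. Rye read 8.01 and 8.27. No other array came within 3 log2 of the 2BS2RL arrays. Its departure was 3.89 ± 0.14 (SE, n = 2, 14.9-fold, adjusted p = 3.95e-07), against -0.31 ± 0.14 in ABD (adjusted p = 0.142), and the lines differed by 4.21 ± 0.17 (adjusted p = 1.02e-05).

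Taestivum_ESTC019221 had a like profile. It read 11.14 and 11.14 in 2BS2RL, 7.20 and 7.83 in ABD, between 6.93 and 7.93 in the diploids, and 8.39 and 8.32 in rye. The diploids were again near background, and D replicate 1 (6.93) was just below its random control (6.95). With diploid values raised to the random control, the 2BS2RL fold was 12.5. The departure was 3.65 ± 0.17 in 2BS2RL (12.6-fold, adjusted p = 1.29e-06) and 0.06 ± 0.17 in ABD (adjusted p = 0.817). The difference of 3.62 ± 0.20 was called (adjusted p = 4.07e-05). In these 2 features the rye departures were 0.62 and 0.86, under the size at which a feature was called.

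Taestivum_ESTC000208 was bright in A (11.73 and 11.67) and D (12.35 and 12.23) and dim in B (8.13 and 7.96). ABD (10.97 and 11.02) and rye (11.18 and 10.77) lay between B and A, while 2BS2RL read 7.75 and 7.57, a little below B. The departure was -3.82 ± 0.14 in 2BS2RL (14.2-fold, adjusted p = 3.95e-07) and -0.49 ± 0.14 in ABD (adjusted p = 0.0313, not called because its size is under 1). The lines differed by -3.34 ± 0.16 (adjusted p = 1.78e-05). Against B alone 2BS2RL was not called.

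Scereale_ESTC005835, from a rye sequence, was read in all plants. It was highest in rye (12.14 and 11.34), between 9.23 and 11.04 on the diploid arrays, and 9.87 and 10.16 in ABD. In 2BS2RL it read 7.83 and 7.79, below every other array. Its departure was -2.54 ± 0.23 (SE, n = 2, 5.83-fold, adjusted p = 8.83e-05), against -0.33 ± 0.23 in ABD (adjusted p = 0.342). The difference of -2.21 ± 0.28 was called with all arrays (adjusted p = 0.00732), but it no longer passed without ABD replicate 2 (adjusted p = 0.0837), 2BS2RL replicate 1 (adjusted p = 0.0548) or 2BS2RL replicate 2 (adjusted p = 0.0834).

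**Figure D5:**
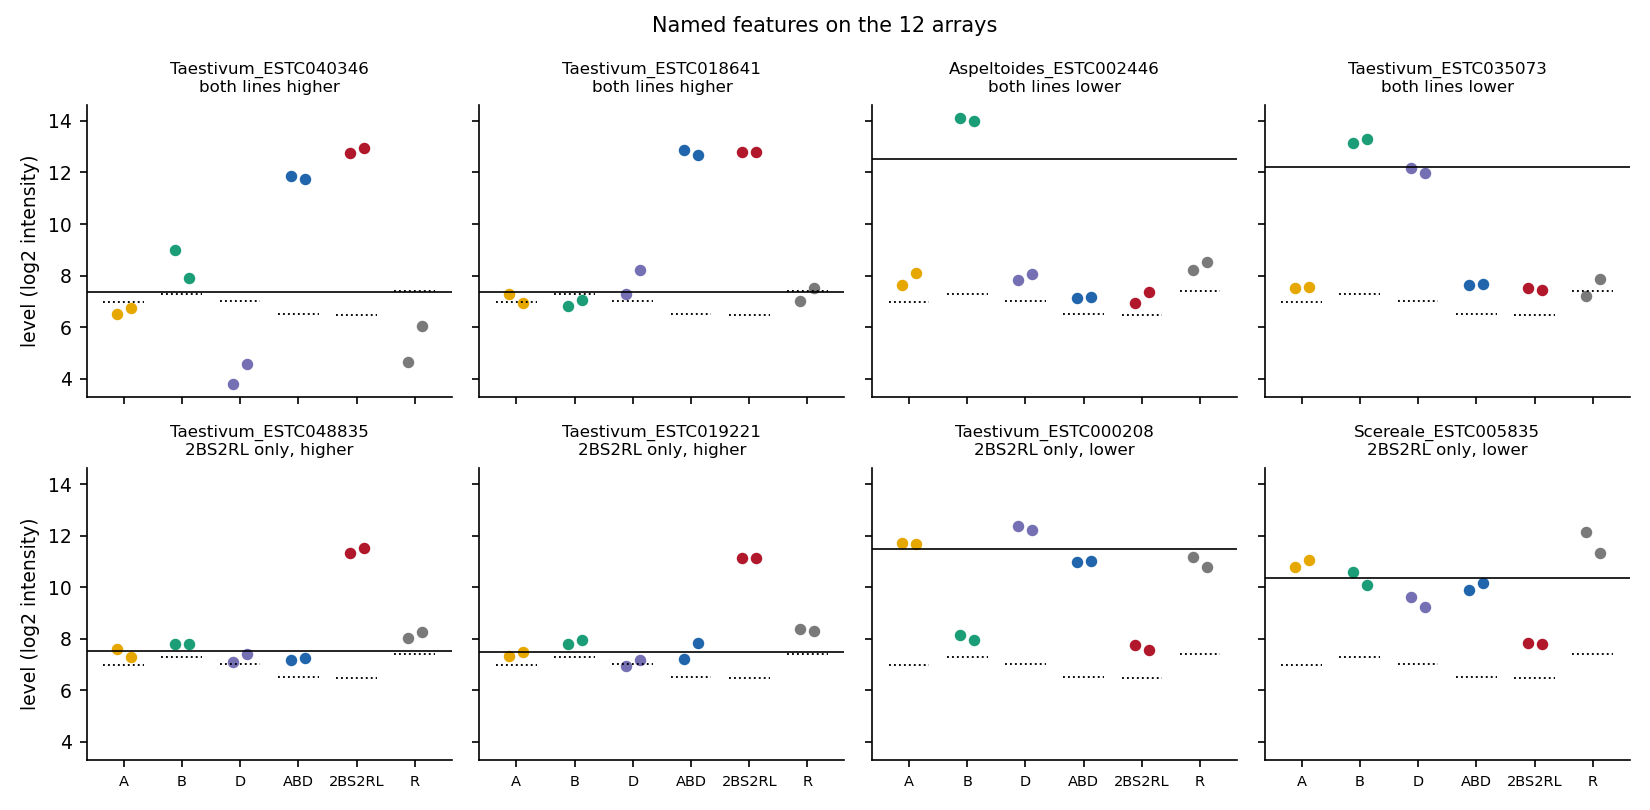
Level (log2 intensity, vertical axis) of the 8 named features on all 12 arrays (horizontal axis, by group, 2 points each). The solid line is the log2 of the progenitor mean and the dotted lines are the mean random control of each group; in the upper row 2BS2RL and ABD leave the line together, and in the lower row 2BS2RL was called away from it and ABD was not (departures from -0.49 to 0.06).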

How the data were processed

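Per the labels, 12 single-colour NimbleGen arrays (Cy3) were hybridised, 2 in each of 6 groups. The deposited values are linear intensity values from the authors, for which the submitters' processing notes name RMA and no version. The linear scale was read from the values, with array medians between 1588 and 1667. Such normalization hides changes in total RNA. The raw probe table was not used, because its 12 value columns match no label.

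All 56855 features were tested (8 control features left out) on log2 values with limma 3.58.1 in R 4.3.3, with 1 group-means model over 12 arrays (6 residual and 2.97 prior degrees of freedom). Departures used a first-order standard error, each diploid weighted by its share of the linear mean, with p-values from the moderated spread and Benjamini-Hochberg adjustment over all features. Differences between lines were limma contrasts. On simulated data of 56855 features, 88 of 100 features changed by 1.5 log2 and 99 of 100 changed by 3 were called, and 9 of 196 calls were false. The simulated noise was independent and normal, with the same spread in all groups and no background shift. On the real arrays replicate differences ran from a median of 0.16 in ABD to 0.27 in R, so that the share of false calls need not carry over. The number of arrays limits the precision. Features share transcripts and are not independent. Members, named-feature rule (2 higher and 2 lower in each of the shared and the 2BS2RL-alone sets) and alternatives were chosen with earlier results of these data known. Splits by sequence source, leading-diploid share and brightness were chosen after the values were seen.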

Additional observations from a re-analysis of the deposited data

Results flagged for a closer look

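The lines differed, by the test of the difference itself, in 81 features higher and 50 lower in 2BS2RL that were not called in ABD. A further 44 features were called on opposite sides of the progenitor mean, where a called difference follows almost from the choice. Of the named features, Taestivum_ESTC048835 differed by 4.21 (2BS2RL minus ABD, log2), Taestivum_ESTC019221 by 3.62, Taestivum_ESTC000208 by -3.34 and Scereale_ESTC005835 by -2.21. Among controls outside the tests, 5 of the 7 sGFP features were above the random control on both 2BS2RL arrays. The brightest had a mean intensity of 2167 there, against a median of 2198 over the diploid arrays. No group had over 2 arrays, so single arrays that lie apart could not be looked for.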

How the results depend on the processing

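Counts are given as higher and lower. For 2BS2RL against the mean they were 4531 higher with log2 means as reference, 1580 lower with cyclic loess, 6359 and 851 scaled to the random control, 1261 and 1329 without the dimmest 25%, 1210 and 494 at a log2 of at least 2, and 4778 and 11805 with no minimum size. Shared with ABD were 3877 and 1057 with log2 means, 876 lower with cyclic loess, 4482 and 516 with control scaling, 1022 and 729 without dim features, 1029 and 295 at 2, and 3654 and 7950 with no minimum. In 2BS2RL alone with the difference called were 31 lower with log2 means, 23 lower with control scaling, 27 and 25 without dim features, and 52 and 30 at 2. Beyond each diploid were 156 lower with cyclic loess, 2757 and 62 with control scaling, 612 and 223 without dim features, 834 and 32 at 2, and 2468 lower with no minimum. Among features higher in rye, 2BS2RL was above and below ABD in 6 and 29 without dim features and in 4 and 40 at 2, and above it in 30 with log2 means and 51 with no minimum. Stricter thresholds and fewer features lower counts by construction, and the cause of the other shifts was not tested. Of 94 such counts under alternatives other than leaving out an array, 53 stayed within 1.5 times.

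Leaving out each array gave 2313 to 2701 higher and 2263 to 3393 lower features, 1840 to 2227 and 1301 to 1921 shared, 53 to 99 and 27 to 57 in 2BS2RL alone, and 1434 to 1559 and 283 to 569 beyond each diploid. Rye-high features gave 7 to 22 above and 47 to 75 below ABD. Only the call of Scereale_ESTC005835 between the lines was lost, among the named features. Its difference ranged from -2.35 to -2.06 over all left-out arrays. Replicate numbers are not said to pair samples: over 15 pairs of groups, the correlation of same-numbered deviations lay between -0.06 and 0.21. With the replicate block 2645 features were higher and 3245 lower, 5787 of the 5843 calls among them, and 74 of the 81 and 44 of the 50 remained.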
